A study of Homo sapiens with 12 samples.

Results

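The interferon-stimulated genes described here are 43 genes taken by name, matched by symbol to the gene rows of both count tables. All 43 were found, out of 60675 genes in each table. They were chosen by name, with earlier results of these data known. They are the factors IRF1, IRF7, IRF9 and STAT2, and 39 antiviral effectors and modifiers grouped below by what their proteins do.

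Interferons are secreted proteins that bind receptors on the cell surface and activate the kinases JAK1 and TYK2. These phosphorylate STAT proteins, and the complex ISGF3, which holds STAT2 and IRF9, binds the interferon-stimulated response element (ISRE) of target genes. A second site bound in this pathway is the gamma-activated site (GAS). Many tumour cell lines transcribe part of this programme without added interferon, and foreign nucleic acid in the cytosol can induce it through sensors such as RIG-I and MDA5.

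RNA was sequenced from 2 human lines that the labels give as basal-like breast cancer cells, MDA-MB-468 and HCC1187. Cells were transfected for 48 h with a short hairpin RNA (shRNA) against the long noncoding RNA SOX9-AS1, or with a control shRNA against LacZ, a bacterial gene. Each line had 3 control and 3 knockdown samples, giving 12 libraries in 4 groups. Every group was transfected, so the controls are not untouched cells. MDA-MB-468 was kept in DMEM and HCC1187 in RPMI-1640, and the lines stand in separate tables, so line, medium and table cannot be told apart when the controls are compared. The labels do not say whether the samples of a group were separate cultures, and p-values then measure only the spread between these libraries.

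Libraries are named by the numbers in the table headers: S1 to S3 are MDA-MB-468 controls, S4 to S6 MDA-MB-468 knockdown, S7 to S9 HCC1187 controls and S10 to S12 HCC1187 knockdown. Only the counts of sequencing lane 1 of each library were used, and 24 of the 36 count columns were not. All counts below, and genes named as too low to be tested, refer to lane 1. Its total ran from 6026376 to 10160040 counts per library, and 40 to 43 of the 43 genes had at least 1 count in each. Levels are given in CPM, a gene's count scaled to the lane 1 total of its library. SOX9-AS1 had 5.52, 6.70 and 5.95 CPM in the MDA-MB-468 controls and 5.04, 4.55 and 4.96 in the knockdown libraries, a difference that did not pass the test. In HCC1187 it fell from 2.54, 1.54 and 1.85 CPM to 1.33, 0.771 and 0.886 (log2 fold change -1.08 ± 0.36, SE, edgeR adjusted p = 0.0349). Library S4 stood apart from S5 and S6: across 15491 genes, which are not independent replicates, the correlation of its log2 CPM was 0.9894 with S1, 0.9906 with S2 and 0.9939 with S3. It was 0.9749 with S5 and 0.9717 with S6. It is also missing from the deposited sample table. Results in MDA-MB-468 are therefore given with and without S4.

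The labelled cell type was checked against marker genes. In the MDA-MB-468 libraries the summed level of 10 epithelial and basal markers was 10381 to 13338 CPM, with KRT19 at 1787 to 2415 and KRT5 at 659 to 1460. In the libraries labelled HCC1187 that sum was 334 to 388 CPM. There KRT19 was at most 0.166 CPM, KRT5 at most 0.212, KRT14 at most 0.118, KRT6B at 0 in all 6 libraries and EPCAM between 4.03 and 8.18. Most of the sum came from KRT8 (166 to 201 CPM), KRT18 (73.0 to 103) and EGFR (57.5 to 65.3). A list of 6 genes expressed in the HEK293 kidney line summed to 603 to 638 CPM in S7 to S9 and to 370 to 418 in S10 to S12, all labelled HCC1187. In MDA-MB-468 the sum was 5.19 to 7.70. The lists were chosen with earlier results of these data known, so the sums are not an independent check of the label. The basal keratins KRT5, KRT14 and KRT6B and the luminal keratin KRT19 were thus at or near 0 in the libraries labelled HCC1187, while 6 of the 10 markers had enough counts to be tested there. The name is used below only as the label of these libraries. Of 12 immune cell markers, CD3E, CD3D, MS4A1, NKG7 and TYROBP had no count in any library. The list summed to 98.6 to 165 CPM in MDA-MB-468, where the myeloid markers CD14, CSF1R and ITGAM were present, and to 2.48 to 5.31 CPM in HCC1187.

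Promoter sequences are shown first because many of the members, but not all, hold a common short motif. RefSeq promoter windows (GRCh38.p14), from 250 bases before to 50 bases after the first listed start, were matched for 35 of the 43 genes. IRF7, USP18, IFIT2, IFITM2, MX2, OAS2, OASL and TRIM22 were not matched. The ISRE core was searched as GAAA, any 2 bases and GAAA again, and the GAS as TTCNNNGAA, on both strands. The core was present in 22 of the 35 windows (62.9%), against 1255 of all 35116 windows (3.57%). GAS letters were present in 10 of 35 (28.6%), against 2689 of 35116 (7.66%). IRF1, IRF9 and STAT2, 3 of the factors, held no ISRE core in these windows, and IRF1 and IRF9 each held 1 GAS. A match is a description of letters and not a measured binding site.

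The following windows carry the core GAAACCGAAA, the same 10 letters in 8 of the members, and are shown because the same core stands before genes that were higher in MDA-MB-468 (MX1, IFITM3), higher in HCC1187 (EPSTI1, DDX60) or not called between the controls (ISG15). IFI27, IFIT1 and IFIT5 also hold this core and are not shown, and all were higher in HCC1187. Capitals mark the core, and each window is 30 bases on the strand of the gene. The distance is from the start to the first base of the core.
MX1, chr21:41420559-41420588 (+), 11 bases after the start: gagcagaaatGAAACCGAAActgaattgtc
EPSTI1, chr13:42992272-42992301 (-), 50 bases before: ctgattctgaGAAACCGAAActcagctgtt
IFITM3, chr11:320876-320905 (-), 35 bases before: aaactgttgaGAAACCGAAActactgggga
ISG15, chr1:1013380-1013409 (+), 107 bases before: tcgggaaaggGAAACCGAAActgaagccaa
DDX60, chr4:168318786-168318815 (-), 53 bases before: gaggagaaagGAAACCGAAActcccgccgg

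The core GAAACTGAAA also stands in 8 members, DDX60 and IFIT5 among them, which hold both. These 3 are shown because they are among the genes that were higher in S5 and S6. The same core stands in DTX3L, called down without S4, and in IFIT5, OAS3 and SAMD9, not called. Any ISRE core was present in 9 of 17 members called up without S4, 3 of 5 called down and 9 of 12 not called. In IFI44 the core lies on the opposite strand and its complement is in capitals.
IFITM1, chr11:314024-314053 (+), 6 bases before: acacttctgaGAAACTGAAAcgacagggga
BST2, chr19:17405741-17405770 (-), 130 bases before: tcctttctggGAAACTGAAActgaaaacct
IFI44, chr1:78649761-78649790 (+), 18 bases before: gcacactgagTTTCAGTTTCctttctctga

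Levels in the controls were compared first, as the state from which each knockdown starts. Between the control libraries 16 of 41 tested members were higher in HCC1187 (39%), 18 were higher in MDA-MB-468 (43.9%) and 7 were not called. A gene was called at an adjusted p under 0.05 in edgeR's quasi-likelihood test. Over all 15592 genes tested, 43.6% were higher in HCC1187 and 40.4% were lower, so the members' shares were near the background. The median log2 fold change (HCC1187 over MDA-MB-468) was -0.09 over the members and 0.06 over all genes. With library totals in place of TMM scaling these medians shifted to 0.14 and 0.29, and 19 members were higher and 18 lower. MX2 and RSAD2 were too low to be tested. Fewer expressing cells and less RNA per cell cannot be told apart in bulk libraries.

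**Figure D1:**
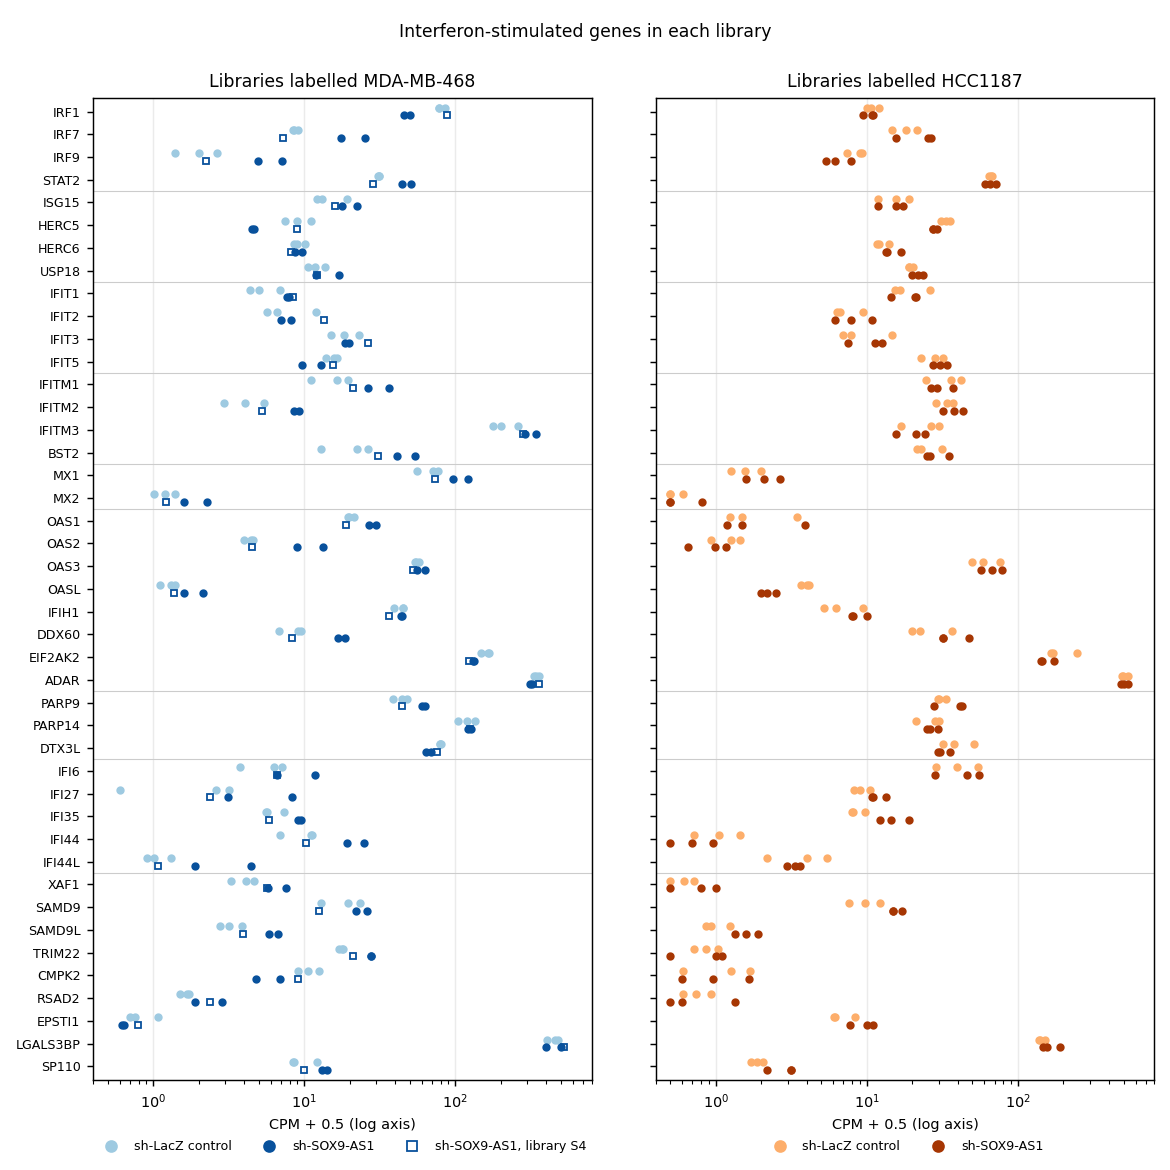
Level of each of the 43 genes in every library, as CPM + 0.5 on a log axis, for the libraries labelled MDA-MB-468 (left) and HCC1187 (right). Each point is 1 library, and the open square is S4. MX1, TRIM22 and XAF1 lie far to the left in HCC1187, and EPSTI1 lies far to the left in MDA-MB-468.

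Among the factors that drive the programme, IRF1 was at 77.7, 77.7 and 84.4 CPM in the MDA-MB-468 controls and at 10.2, 11.6 and 9.48 in the HCC1187 controls (log2 fold change -3.18 ± 0.11, adjusted p = 5.69e-17). IRF1 is a transcription factor induced by interferon gamma. The other three were higher in HCC1187. IRF9, the DNA-binding part of ISGF3, stood at 2.15, 0.885 and 1.52 CPM against 6.89, 8.75 and 8.50 (2.13 ± 0.26, adjusted p = 1.63e-07). STAT2 was higher by 0.85 ± 0.09 and IRF7, the factor that amplifies type I interferon production, by 0.86 ± 0.16. No factor's control groups overlapped between the lines, and the share of all genes without overlap was not computed.

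MX1 and part of the OAS family were higher in MDA-MB-468. MX1, a dynamin-like GTPase that blocks virus nucleocapsids, was at 55.7, 71.1 and 76.7 CPM in MDA-MB-468 and at 1.48, 1.06 and 0.763 in HCC1187. The difference, -6.15 ± 0.19 (adjusted p = 1.55e-17), was the largest of the 41. MX2 had 18 counts in the MDA-MB-468 controls together and 1 in the HCC1187 controls, a ratio of 18.5 with an exact 95% counting interval of 2.93 to 773.

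Among the 2'-5' oligoadenylate synthetases, which are activated by double-stranded RNA, OAS1 (-3.92 ± 0.26) and OAS2 (-2.65 ± 0.32) were higher in MDA-MB-468. OASL, a relative without that synthase activity, was higher in HCC1187 (1.92 ± 0.31). OAS3, at 53.8 to 56.6 CPM in MDA-MB-468 and 48.8 to 75.9 in HCC1187, was not called. The double-stranded RNA sensor MDA5, encoded by IFIH1, stood at 38.5 to 44.4 CPM in MDA-MB-468 and at 4.66 to 8.87 in HCC1187 (-2.96 ± 0.16). The helicase DDX60 was higher in HCC1187 by 1.46 ± 0.20. The kinase PKR, encoded by EIF2AK2, was not called, at 0.05 ± 0.11 (adjusted p = 0.678).

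The 4 membrane proteins that restrict virus entry or release moved in both directions, and the 3 IFITM genes each share sequence with another gene. IFITM3 had 178, 200 and 258 CPM in MDA-MB-468 against 16.2, 29.3 and 26.2 in HCC1187 (-3.39 ± 0.15, adjusted p = 9.2e-15). IFITM2 had 2.45, 3.54 and 4.90 against 28.2, 33.4 and 36.7 (2.95 ± 0.19, adjusted p = 2.87e-12). IFITM1 was higher in HCC1187 by 0.92 ± 0.18, and BST2 (tetherin), which holds budding virions at the cell surface, was not called (0.08 ± 0.19). Of the 76-base words in the GENCODE v29 transcripts of IFITM1, IFITM2 and IFITM3, 29.7%, 23.9% and 23.5% also occur in transcripts of another gene. The words were searched on both strands. The gene sharing most was IFITM2 for IFITM1 (27.7%), IFITM1 for IFITM2 (19.8%) and AC136475.5 for IFITM3 (15.8%). The separate levels of IFITM1 and IFITM2 are uncertain to that extent. AC136475.5 lies on the opposite strand, so its part for IFITM3 holds only if the counting ignored strand, which is unknown here.

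The IFI genes split as well. IFI6, a mitochondrial and endoplasmic reticulum protein, was at 3.27, 5.82 and 6.65 CPM in MDA-MB-468 and at 28.3, 53.8 and 39.0 in HCC1187 (2.72 ± 0.22). IFI27 and IFI44L were also higher in HCC1187 (2.26 ± 0.37 and 2.29 ± 0.43). Their neighbour by name, IFI44, was at 6.44, 10.6 and 10.7 CPM in MDA-MB-468 and at 0.212, 0.946 and 0.545 in HCC1187 (-4.24 ± 0.34, adjusted p = 1.95e-10). IFI44 and IFI44L lie next to each other on chromosome 1, and the windows of both hold an ISRE core.

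The remaining effectors were mostly higher in MDA-MB-468, 7 of the 8 tested. TRIM22, a ubiquitin ligase that restricts retroviruses, was at 17.3, 16.4 and 17.6 CPM there and at 0.530, 0.355 and 0.218 in HCC1187 (-5.71 ± 0.26). XAF1, an inhibitor of the apoptosis inhibitor XIAP, had 91 counts over the MDA-MB-468 controls and 3 over the HCC1187 controls, a ratio of 31.3 with an exact counting interval of 10.4 to 154. CMPK2, a mitochondrial nucleotide kinase encoded beside RSAD2, was lower in HCC1187 (-4.13 ± 0.33). SP110, a nuclear body protein, had -2.97 ± 0.25. EPSTI1 was the exception, at 0.204, 0.253 and 0.583 CPM in MDA-MB-468 and 5.62, 7.81 and 5.56 in HCC1187 (3.92 ± 0.37, adjusted p = 2.13e-09). MX1 and EPSTI1 thus lay at opposite ends although both windows printed above hold the same core.

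All 3 of PARP9, PARP14 and DTX3L, which act on ADP-ribose and ubiquitin marks, were lower in HCC1187 (-0.73 ± 0.11, -2.43 ± 0.11 and -1.22 ± 0.12). In the ISG15 conjugation group, HERC5, the ligase that attaches ISG15, was higher in HCC1187 (1.70 ± 0.14), as was USP18, the protease that removes it (0.48 ± 0.14). ISG15 itself, at 11.6 to 18.7 CPM and 11.3 to 18.5 CPM, and HERC6 were not called. Of the IFIT proteins, which bind foreign RNA ends, IFIT1 (1.69 ± 0.22) and IFIT5 (0.63 ± 0.13) were higher in HCC1187, IFIT3 was lower (-1.21 ± 0.22) and IFIT2 was not called.

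Per kilobase of gene length, IFITM3 was the most abundant member in the MDA-MB-468 controls, at 184 CPM per kilobase, followed by LGALS3BP at 130 and ADAR at 35.6. In the HCC1187 controls ADAR led at 52.5 CPM per kilobase, followed by IFI6 at 47.9 and LGALS3BP at 41.6. ADAR edits double-stranded RNA, and LGALS3BP is a secreted glycoprotein that binds galectin-3. At the other end, 8 of the 43 genes averaged under 1 CPM in the HCC1187 controls and 4 in the MDA-MB-468 controls.

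**Figure D2:**
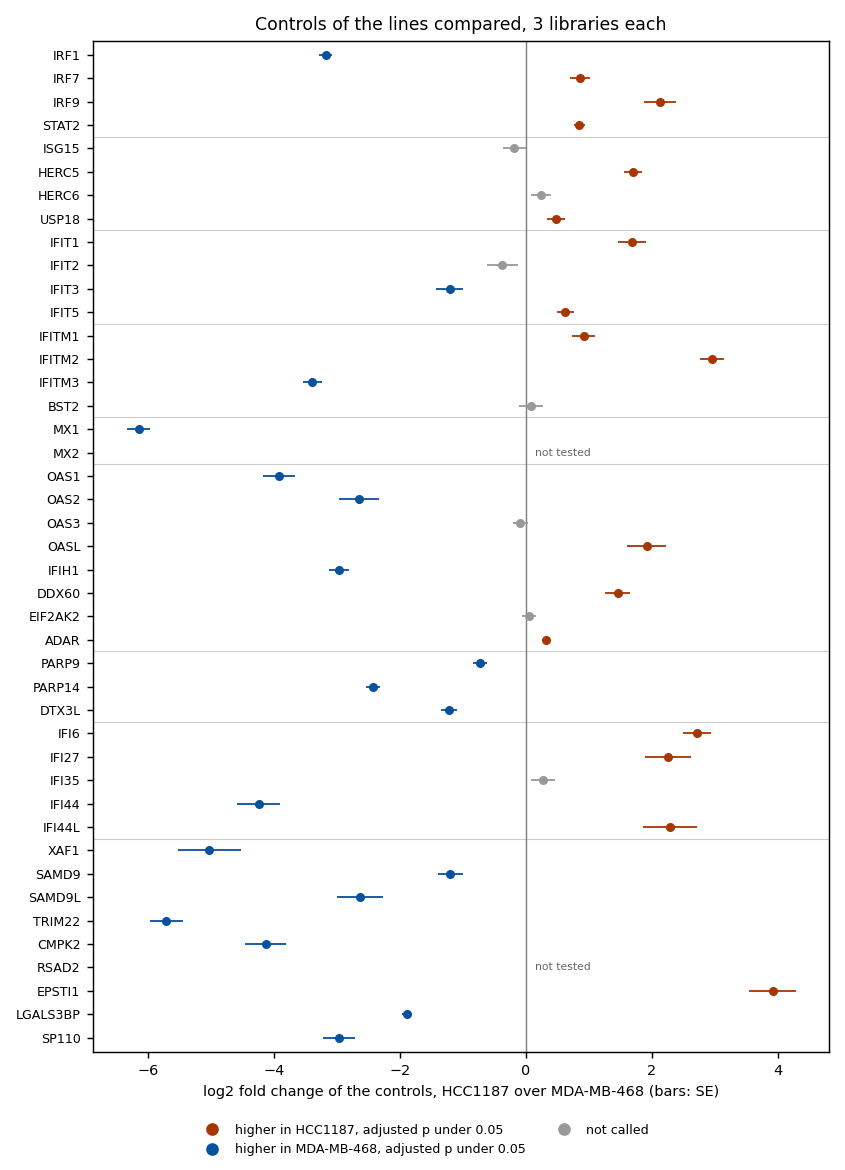
Log2 fold change of the control libraries, HCC1187 over MDA-MB-468, with its SE, for 41 tested genes in the order of their groups (3 libraries a side). Points run from -6.15 at MX1 to 3.92 at EPSTI1, with 16 called above 0 and 18 called below.

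In the libraries labelled HCC1187, sh-SOX9-AS1 was followed by few changes among these genes. Of 34 tested members 2 rose (5.88%) and 4 fell (11.8%), against 9.78% and 13.1% of all 14970 genes tested, and 28 were not called. The median log2 fold change was 0.07 over the members and 0.01 over all genes. The 9 genes that were too low to be tested were MX2, OAS1, OAS2, IFI44, XAF1, SAMD9L, TRIM22, CMPK2 and RSAD2.

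IFI35, a leucine zipper protein that binds NMI, rose from 9.22, 7.45 and 7.63 CPM in S7 to S9 to 18.4, 13.9 and 11.7 in S10 to S12 (0.77 ± 0.17, adjusted p = 0.00262). All 3 knockdown libraries lay above all 3 controls. SAMD9, a restriction factor of poxviruses, rose from 9.22, 11.7 and 7.08 to 16.6, 14.4 and 14.5 CPM (0.64 ± 0.17, adjusted p = 0.00784). Its groups did not overlap either, but the call was lost without S9 and with all 12 libraries fitted together. Among the members in HCC1187, the knockdown libraries lay above the controls in 5 and below them in 2, and the groups overlapped in 36. The share of all genes without overlap was not computed.

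OASL fell from 3.18, 3.67 and 3.49 CPM to 1.49, 2.01 and 1.67 (-1.05 ± 0.28, adjusted p = 0.00816), with no overlap between the groups. IFI35 and OASL were the only ones of the 6 called members whose call held in all 11 alternatives of test, scaling, filter and libraries. HERC5 went from 30.3, 33.1 and 35.0 CPM to 26.7, 28.7 and 26.9 (-0.32 ± 0.11, adjusted p = 0.0468), a call lost in 7 of the 11. EIF2AK2 had 171, 245 and 165 CPM in the controls and 144, 174 and 142 in the knockdown (-0.39 ± 0.12, adjusted p = 0.0203), and DTX3L 37.2, 51.0 and 31.6 against 28.9, 34.9 and 29.8 (-0.41 ± 0.14, adjusted p = 0.037). Both overlap between groups, and both calls were lost without the control S8.

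S8 was the highest control in 30 of the 35 members averaging at least 1 CPM (85.7%), against 33.9% of all such genes. S12 was the lowest knockdown library in 25 of 36 members (69.4%), against 27.4% of genes. Most members were thus high in S8 and low in S12, and the part of this in the calls was not tested.

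None of the 4 factors was called in HCC1187. IRF1 had 10.2, 11.6 and 9.48 CPM in the controls and 10.5, 10.3 and 8.96 in the knockdown (-0.14 ± 0.16, adjusted p = 0.571). IRF7 had 14.1, 20.9 and 17.8 against 25.9, 25.0 and 15.1 (0.23 ± 0.18, adjusted p = 0.362), with S10 and S11 above and S12 within the control range. STAT2 stayed at 60.3 to 70.9 CPM in all 6 libraries (-0.06 ± 0.09, adjusted p = 0.687). IRF9 was lower in S10 and S12, at 5.64 and 4.82 CPM, than in the controls (-0.51 ± 0.20, adjusted p = 0.0655). The 4 IFIT genes had log2 fold changes from -0.11 (IFIT1) to 0.08 (IFIT5), the 4 membrane proteins from -0.35 (IFITM3) to 0.13 (BST2), and none of these 8 was called.

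**Figure D3:**
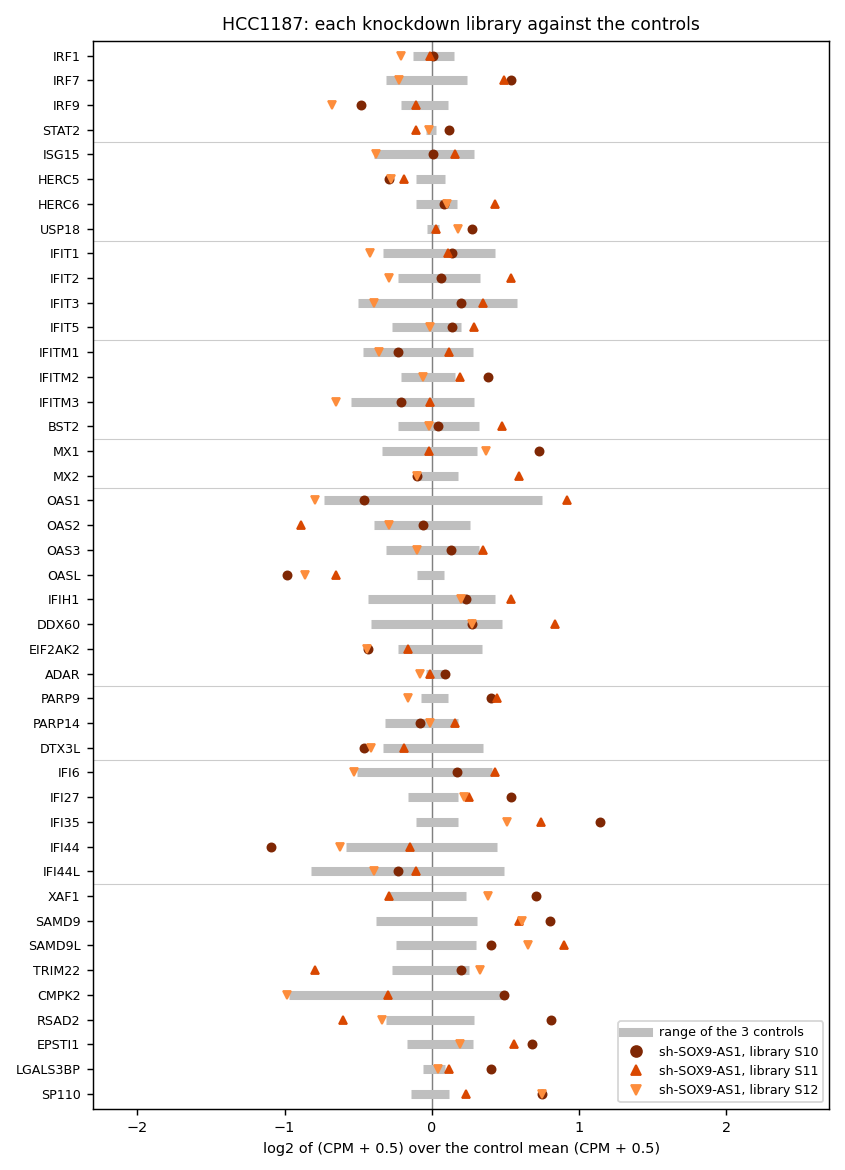
Each HCC1187 knockdown library against the mean of the controls S7 to S9, as a log2 ratio of CPM + 0.5; the grey bar is the range of the 3 controls. OASL lies below the controls and IFI35 above them in all 3 knockdown libraries, and S12 (downward triangle) lies to the left of S11 in most genes.

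In MDA-MB-468 with all 6 libraries, no member passed the test: 0 of 39 tested rose and 0 fell. Over all 13638 genes tested 0% rose and 0.00733% fell, 1 gene. At an unadjusted p under 0.05, 17 of the 39 members and 2554 of the 13638 genes stood out. The members' median log2 fold change was 0.39, against 0.00 for all genes, and 30 of 39 were above 0. DESeq2 called 1 member up, edgeR with no filter on low counts called 12 up, and edgeR with all 12 libraries called 2 up. The spread between libraries of a group, as the common biological coefficient of variation, was 0.161 with S4 and 0.078 without it.

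Without S4, the comparison of 3 controls with S5 and S6 called 21 of 40 tested members up (52.5%) and 5 down (12.5%), and 14 were not called. The background in that fit was high: 20% of all 13947 genes tested rose and 20.7% fell. The median log2 fold change was 0.56 over the members and 0.00 over all genes. Leaving out S4 was chosen after the values were seen. With S5 also left out, 12 members were up. Of the members averaging at least 1 CPM, control S1 was the lowest control in 24 of 39 (61.5%, against 34.2% of genes) and S5 the highest knockdown library in 24 of 42 (57.1%, against 26.9%). The part of this in the calls was not tested.

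IRF7 was at 8.58, 8.09 and 7.93 CPM in the controls S1 to S3, at 6.77 in S4 and at 24.6 and 17.1 in S5 and S6. Without S4 it rose by 1.37 ± 0.17 (adjusted p = 2.32e-05), and with S4 the change was 1.00 ± 0.39 (adjusted p = 0.229). S4 lay below all 3 controls and S5 and S6 above them. IRF9 was at 2.15, 0.885 and 1.52 CPM in the controls, 1.73 in S4 and 4.42 and 6.61 in S5 and S6, and rose by 1.83 ± 0.34 without S4 (adjusted p = 0.000599; 0.209 with it). Of the 76-base words of IRF9 transcripts 40.8% occur in the overlapping readthrough gene AL136295.5, so its count is uncertain. STAT2 was at 31.0, 30.7 and 30.4 CPM in the controls, 27.8 in S4 and 50.6 and 44.2 in S5 and S6, and rose by 0.65 ± 0.11 without S4 (adjusted p = 0.000224; 0.284 with it).

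IRF1 moved the other way. It was at 77.7, 77.7 and 84.4 CPM in the controls, 87.3 in S4, and 49.99 and 45.0 in S5 and S6, and fell without S4 (-0.73 ± 0.10, adjusted p = 4.36e-05). With S4 the change was -0.38 ± 0.23 (adjusted p = 0.37). IRF1 shares 22% of its exon bases with genes on the opposite strand, C5orf56 among them. Their reads cannot be told apart there unless the counting used strand, which is unknown here. For none of the 4 factors did S4 lie beyond the controls on the side of S5 and S6.

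All 4 membrane proteins rose without S4. BST2 was at 12.4, 21.9 and 26.0 CPM in the controls, 30.3 in S4 and 53.4 and 40.3 in S5 and S6 (1.26 ± 0.21, adjusted p = 0.000227). IFITM1 had 10.6, 16.1 and 19.01 CPM in the controls, 20.5 in S4, and 35.9 and 26.0 in S5 and S6 (1.06 ± 0.20, adjusted p = 0.000581). IFITM3 was at 178, 200 and 258 CPM in the controls, 280 in S4 and 339 and 289 in S5 and S6 (0.59 ± 0.12, adjusted p = 0.00145), a call lost without S5. For BST2, IFITM1 and IFITM3 all 3 knockdown libraries, S4 included, lay above all 3 controls. With S4 kept, this held for 8 members in MDA-MB-468, IFIT1, SAMD9L and RSAD2 among them. In 2 members the knockdown libraries lay below the controls, and in 33 the groups overlapped. The share of all genes without overlap was not computed. IFITM2 rose by 1.24 ± 0.26, with S4 at 4.75 CPM inside the control range of 2.45 to 4.90.

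All 5 IFI genes rose without S4, with wide errors. IFI44L was at 0.409, 0.506 and 0.816 CPM in the controls, 0.576 in S4 and 3.91 and 1.38 in S5 and S6 (2.22 ± 0.51, adjusted p = 0.00286). IFI44 was at 6.44, 10.6 and 10.7 CPM, then 9.80 in S4 and 24.4 and 18.7 in S5 and S6 (1.26 ± 0.20, adjusted p = 0.000161). IFI27 had 0.102, 2.66 and 2.099 CPM in the controls, 1.87 in S4 and 7.83 and 2.62 in S5 and S6 (1.79 ± 0.57, adjusted p = 0.0203), and S6 lay inside the control range. The calls of IFI6 (0.77 ± 0.29) and IFI35 (0.64 ± 0.21) were lost in 6 and 5 of 10 alternatives, and those of IFI27 and IFI44L without S5.

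Of the genes that bind double-stranded RNA, 3 rose, 1 fell and 3 were not called without S4. OAS2 was at 3.47, 3.92 and 4.08 CPM in the controls, 4.03 in S4 and 12.8 and 8.40 in S5 and S6 (1.5 ± 0.23, adjusted p = 0.000111). DDX60 was at 6.33, 8.98 and 8.63 CPM, then 7.78 in S4 and 18.1 and 16.1 in S5 and S6 (1.13 ± 0.18, adjusted p = 0.000152). OAS1 rose by 0.52 ± 0.13, a call lost without S5 and with 11 libraries fitted together, and OAS3, IFIH1 and ADAR were not called, at 0.12 ± 0.10, 0.07 ± 0.11 and -0.10 ± 0.08. EIF2AK2 fell by a small step (-0.25 ± 0.09, adjusted p = 0.0319), with S4 at 123 CPM, S5 and S6 at 131 and 133 and the controls at 147 to 166. All 3 knockdown libraries lay below all 3 controls. That call was lost in 6 of 10 alternatives.

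MX1 had 55.7, 71.1 and 76.7 CPM in the controls, 73.3 in S4 and 120 and 95.8 in S5 and S6 (0.70 ± 0.13, adjusted p = 0.000476). Among the other effectors SAMD9L, a relative of SAMD9 and a translation inhibitor, rose by 1.08 ± 0.26, XAF1 by 0.85 ± 0.26, TRIM22 by 0.69 ± 0.13 and SP110 by 0.53 ± 0.19. The call of SP110 was lost in 5 of 10 alternatives, that of XAF1 in 3, DESeq2 among them, and that of SAMD9L without S5. For XAF1 and TRIM22 all 3 knockdown libraries lay above the controls. XAF1 shares 38.3% of its exon bases with PRAL on the opposite strand, and reads of both cannot be told apart unless the counting used strand, which is unknown here. PARP9 rose by 0.53 ± 0.11. CMPK2 had 8.58, 12.02 and 10.03 CPM in the controls, 8.64 in S4, and 6.44 and 4.27 in S5 and S6, and fell (-0.89 ± 0.23, adjusted p = 0.00587), and its call was lost without S6.

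The IFIT and ISG15 conjugation groups gave 1 call between them without S4. None of the 4 IFIT genes was called: IFIT1 had 0.59 ± 0.24 (adjusted p = 0.0603), IFIT2 -0.08 ± 0.29, IFIT3 0.07 ± 0.17 and IFIT5 -0.44 ± 0.18 (adjusted p = 0.0597). For IFIT1, IFIT2 and IFIT3 the highest of the 6 libraries was S4, at 7.92, 12.97 and 26.1 CPM. In the ISG15 conjugation group ISG15 (0.47 ± 0.19, adjusted p = 0.06), USP18 and HERC6 were not called. HERC5 was at 6.95, 10.6 and 8.51 CPM in the controls, 8.50 in S4 and 4.04 and 4.13 in S5 and S6, and fell (-1.05 ± 0.24, adjusted p = 0.00281). DTX3L fell by a small step (-0.24 ± 0.09, adjusted p = 0.0487), a call lost in 8 of 10 alternatives.

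Set against the range of the 3 controls, S4 lay above it in 6, inside it in 12 and below it in 3 of the 21 genes that rose without S4. S5 lay above it in all 21 and S6 in 19, as the choice of genes by these libraries largely fixes: over all genes that rose the shares were 99.9% and 99.3%. Over the 2791 genes of the whole table that rose without S4, S4 lay above in 32.4%, inside in 38.3% and below in 29.3%. Among the 5 genes that fell, S4 lay above in 1, inside in 2 and below in 2, against 27.3%, 35.7% and 37% of all genes that fell.

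**Figure D4:**
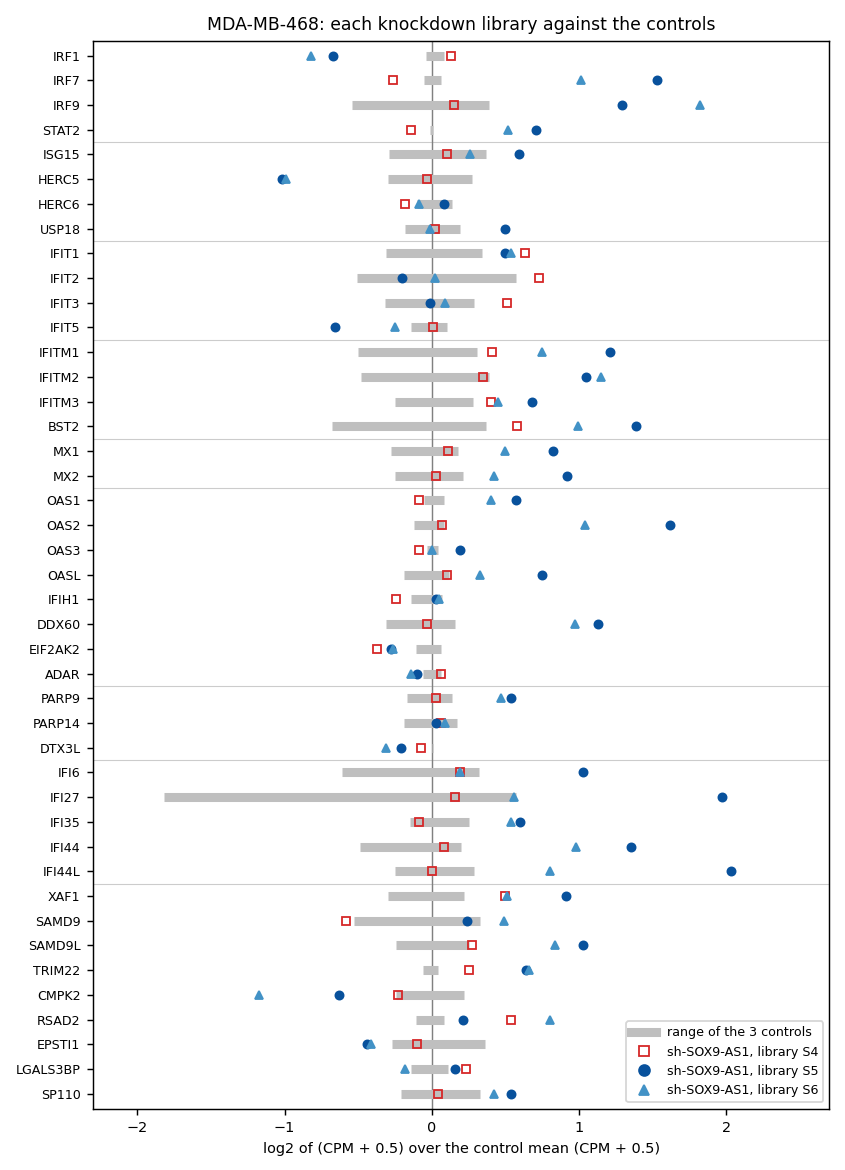
Each MDA-MB-468 knockdown library against the mean of the controls S1 to S3, as a log2 ratio of CPM + 0.5; the grey bar is the range of the 3 controls. S5 (circles) and S6 (triangles) lie to the right of the controls for the factors IRF7, IRF9 and STAT2 and for the membrane proteins, and to the left for IRF1, HERC5 and CMPK2, while S4 (squares) lies inside the bar for 18 of the 40 genes tested.

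Markers moved in the same libraries. Of the 10 epithelial and basal markers 6 fell and 0 rose without S4, and their summed level was 12473 to 13088 CPM in the controls, 13338 in S4, 11137 in S5 and 10381 in S6. KRT17 stood at 521 to 606 CPM in the controls, 576 in S4 and 112 and 90.0 in S5 and S6. Of 12 immune cell markers 3 could be tested, 1 fell (ITGAM) and 0 rose, and the sum was 98.6 to 156 CPM in the controls and 145 and 114 in S5 and S6, nearly all from CD14 and CSF1R. In HCC1187 4 of the 6 HEK293-line markers fell (66.7%) and 0 rose, against 13.1% and 9.78% of all genes. Of 6 tested epithelial and basal markers there 2 fell and 0 rose. The part of these shifts in the results of either line was not tested.

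The difference between the lines, the knockdown effect in HCC1187 minus that in MDA-MB-468, was tested in a fit of all 12 libraries. It called 0 of 42 members up and 1 down, against 1.24% and 2.52% of 16328 genes, and the 1 was OASL (-1.72 ± 0.46, adjusted p = 0.0488). In MDA-MB-468 OASL had 0.613, 0.885 and 0.816 CPM in the controls and 0.864, 1.64 and 1.10 in S4 to S6, too low to be tested alone. Its call was lost in 14 of 16 alternatives. At an unadjusted p under 0.05 were 10 of the 42 members and 3367 of the 16328 genes. IRF9 just missed the threshold (-1.98 ± 0.53, adjusted p = 0.0503).

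Without S4 the difference was called for 14 of 42 members, 2 up (4.76%) and 12 down (28.6%), against 12.4% and 13.2% of 16807 genes. The factors all differed: IRF7 (-1.13 ± 0.27, adjusted p = 0.00293), IRF9 (-2.34 ± 0.39, adjusted p = 5.69e-05) and STAT2 (-0.71 ± 0.14, adjusted p = 0.000464) had lower effects in HCC1187, and IRF1 a higher one (0.59 ± 0.18, adjusted p = 0.0153). The membrane proteins IFITM1, IFITM2, IFITM3 and BST2 differed by -0.94 to -1.26. IFI44, IFI44L and OAS2 differed by -2.58 ± 0.82, -2.56 ± 0.63 and -2.20 ± 0.62. HERC5 (0.74 ± 0.25) and IFI27 (-1.50 ± 0.54) were also called, and these calls were lost in 6 and 9 of 15 alternatives, IFI27 running from -2.08 to -0.49. IFI44 rests on 15 counts over the HCC1187 controls and 5 over the HCC1187 knockdown libraries, and its call was lost in 4 of 15 alternatives. For MX1 (-0.23 ± 0.43) and IFI35 (0.13 ± 0.28) the difference between the lines did not pass the test.

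Gene by gene, IFI35 was called up and HERC5, EIF2AK2 and DTX3L were called down in both HCC1187 and, without S4, MDA-MB-468. Over all genes 9.78% rose and 13.1% fell in HCC1187, and 20% and 20.7% in MDA-MB-468 without S4. The share of all genes called alike in both was not computed. The call of DTX3L was lost in 6 of 11 alternatives in HCC1187 and 8 of 10 in MDA-MB-468, that of EIF2AK2 in 4 and 6. HERC5 lost its call in 7 of 11 in HCC1187, and IFI35 in 5 of 10 in MDA-MB-468. Of the 21 members up in MDA-MB-468 without S4, 14 were tested and not called in HCC1187 and 6 were too low there to be tested. The lines share no control samples.

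**Figure D5:**
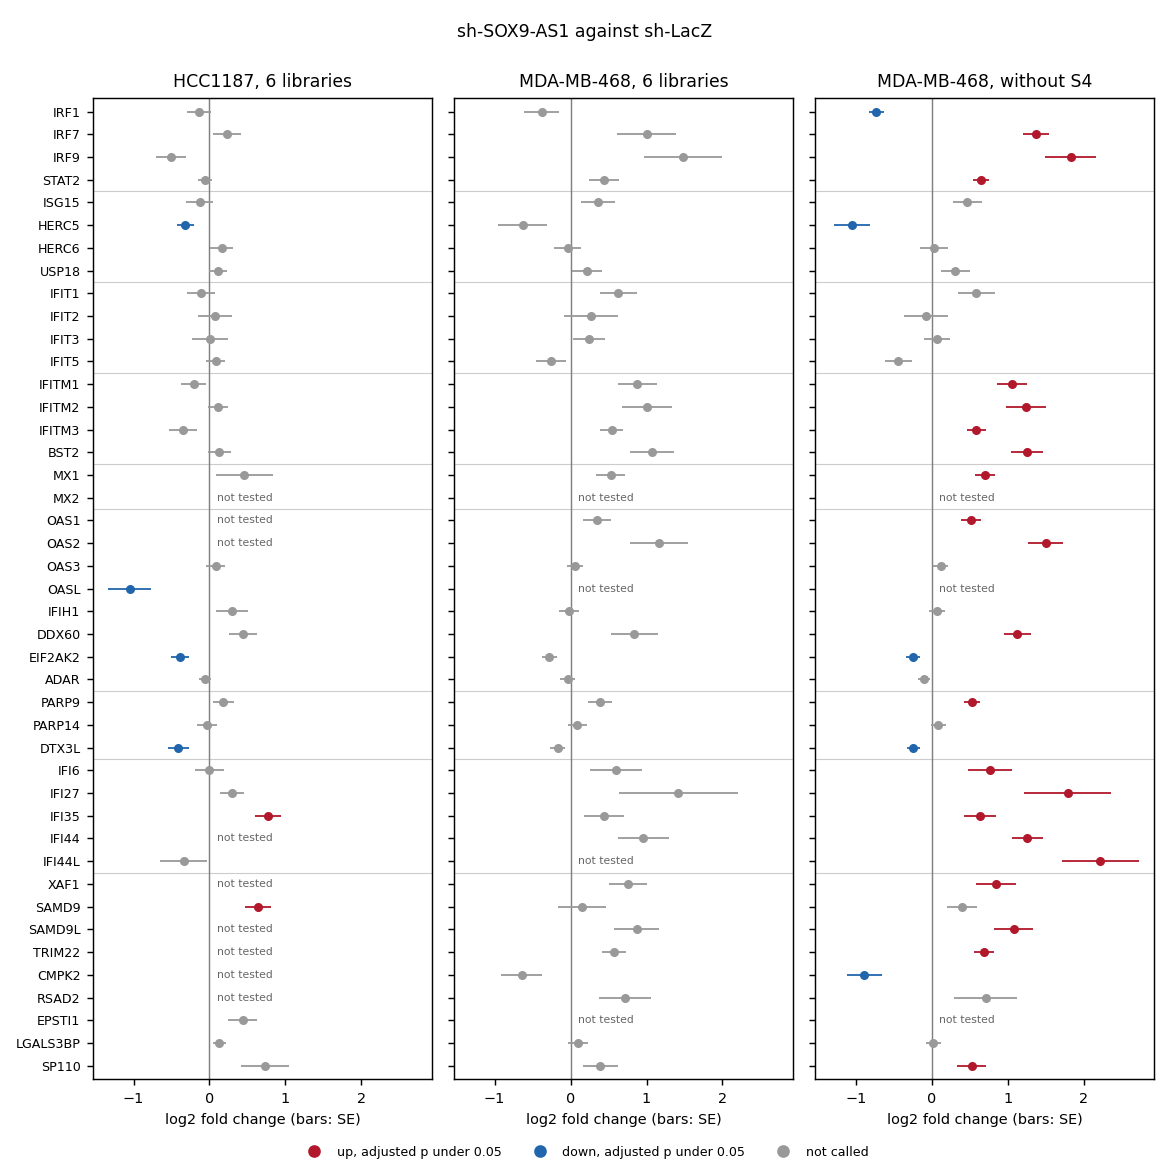
Log2 fold change of sh-SOX9-AS1 against sh-LacZ with its SE for each gene, in HCC1187 (left), MDA-MB-468 with 6 libraries (middle) and MDA-MB-468 without S4 (right). Coloured points passed an adjusted p of 0.05: 6 on the left, 0 in the middle and 26 on the right.

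Other genes of the pathway were taken from lists by role. Their counts stand against the shares of all genes given above: 9.78% up and 13.1% down in HCC1187, and 20% up and 20.7% down in MDA-MB-468 without S4. Of 21 interferon genes 0 had enough counts to be tested in either line, and their summed level was at most 1.01 CPM in any library. IFNE, an epithelial type I interferon, made up most of that in MDA-MB-468, at 0.413 to 1.01 CPM, and IFNB1 reached at most 0.127 CPM. All 6 receptor genes were tested. In HCC1187 2 of them fell: IFNAR1, a chain of the type I interferon receptor (-0.41 ± 0.12, adjusted p = 0.0134), and IFNGR1, of the interferon gamma receptor (-0.32 ± 0.11, adjusted p = 0.0362). In MDA-MB-468 without S4 IFNGR1 rose (0.21 ± 0.08, adjusted p = 0.0469). Between the controls 4 of the 6 were lower in HCC1187 and 1 higher.

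Of 11 tested kinases, STATs and IRFs outside the 43, 1 rose in HCC1187 (IRF2, 0.39 ± 0.13). In MDA-MB-468 without S4 3 rose and 1 fell, TYK2 with the smallest p, at 262, 264 and 275 CPM in the controls, 267 in S4, 453 in S5 and 387 in S6 (0.68 ± 0.08, adjusted p = 1.47e-05). Of the nucleic acid sensors and adaptors 1 of 12 rose in HCC1187, DHX58 (0.89 ± 0.25), which modulates RIG-I signalling. In MDA-MB-468 without S4 1 of 13 rose and 4 fell, TRIM25, the ubiquitin ligase of RIG-I (-0.67 ± 0.10), and the kinase IKBKE (-0.72 ± 0.11) with the smallest p. Feedback inhibitors gave 0 calls of 9 in HCC1187. There 4 of the 9 had an unadjusted p under 0.05, as had 5304 of all 14970 genes tested. In MDA-MB-468 without S4 2 of 10 were up and 4 down, among them SOCS3 (1.03 ± 0.18) and SOCS2 (-1.70 ± 0.33).

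Of the other interferon-induced genes listed, 7 of 33 rose (21.2%) and 1 fell (3.03%) in HCC1187. UBE2L6, the conjugating enzyme of ISG15, rose from 23.8, 26.5 and 23.0 CPM to 37.3, 38.6 and 35.1 (0.54 ± 0.11, adjusted p = 0.00119). SLFN11, a restriction factor that acts on tRNA, fell from 291, 313 and 306 to 209, 240 and 230 CPM (-0.48 ± 0.09, adjusted p = 0.000348). In MDA-MB-468 without S4 12 of 41 rose (29.3%) and 2 fell (4.88%). GBP2, a guanylate-binding protein induced by interferon gamma, was at 74.8, 72.0 and 82.6 CPM in the controls, 88.9 in S4, 258 in S5 and 291 in S6, and rose (1.87 ± 0.09, adjusted p = 1.28e-09). TNFSF10 (TRAIL), a death ligand, rose by 1.34 ± 0.11, and the antiviral zinc finger protein ZC3HAV1 fell (-0.87 ± 0.08). With S4 kept none of the genes of these lists was called in MDA-MB-468.

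Between the controls 40.4% of all genes were lower in HCC1187 and 43.6% higher. Of 43 other interferon-induced genes 35 were lower in HCC1187 and 7 higher, of 12 kinases, STATs and IRFs 11 were lower and 1 higher, and of 13 sensors and adaptors 9 were lower and 2 higher. PSMB8, a subunit of the immunoproteasome, was at 111 to 131 CPM in MDA-MB-468 and 1.17 to 1.54 in HCC1187 (-6.66 ± 0.15), and MYD88, the adaptor of Toll-like receptors, at 56.7 to 69.2 against 1.06 to 1.30 (-5.94 ± 0.17). IFI16, a DNA sensor, was at 0.467 to 1.33 against 19.7 to 23.7 CPM (4.33 ± 0.24).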

How the data were processed

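Gene counts were deposited by the authors in 1 table per line, with each library split over 3 sequencing lanes. Per the labels' protocols, mRNA libraries were stranded and read as pairs of 76 bases. The submitters' processing notes name featureCounts 2.0.0, the aligner HISAT2 2.1.0 on GRCh38, and Trimmomatic 0.39, with SAMtools, FastQC 0.11.9 and MultiQC 1.11 also listed. For strand setting and annotation: not given in the sources used here. Gene length is the authors' deposited value, in bases.

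The lane columns carry a group and a library number but no replicate number of the labels. Lane 1 of each library was used, and 24 of the 36 count columns were not used. CPM used the library totals of lane 1.

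Counts were tested with edgeR 4.0.16 in R 4.3.3 (quasi-likelihood, TMM, filterByExpr with a minimum count of 10 and total of 15), with Benjamini-Hochberg adjustment over all tested genes and a threshold of 0.05. Each line was fitted alone, the controls of both lines together, and the difference over all 12 libraries. Alternatives were DESeq2 1.42.0, RLE scaling, library totals, no filter, all libraries together and each library left out. The procedure was tested on simulated data for the planned comparisons, with no library that stood apart, and not for the fits without S4. The fits without S4 were added after seeing the data. Members, lists and tests were chosen with earlier results of these data known.

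By the rule for named genes, the 4 factors are always named, then up to 12 called members per comparison by size of change, 2 to 4 examples per group, and the 3 genes of smallest p in each other list. Some genes of these lists are not reported here. Names beyond that rule, and markers, were chosen after their values were seen. Promoters and transcripts came from RefSeq (GRCh38.p14) and GENCODE v29. Intervals cover counting error only. Fold changes of members of few counts are imprecise.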

Additional observations from a re-analysis of the deposited data

Results flagged for a closer look

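In these results the knockdown effect differed between the lines by a test of the difference itself (HCC1187 minus MDA-MB-468, edgeR). With all 12 libraries OASL differed by -1.72 (adjusted p = 0.0488), a call lost in 14 of 16 alternatives. Its 3 HCC1187 knockdown libraries lay below their controls, and S5 and S6 lay above theirs. The other 14 were called without S4. Among the factors these were IRF1 at 0.59, IRF7 at -1.13, IRF9 at -2.34 and STAT2 at -0.71. HERC5 differed by 0.74, falling in both lines but less in HCC1187. Among the membrane proteins the differences were -1.26 for IFITM1, -1.12 for IFITM2, -0.94 for IFITM3 and -1.13 for BST2. They were -2.20 for OAS2, -1.91 for OASL, -1.50 for IFI27, -2.58 for IFI44 and -2.56 for IFI44L. The call of IFI27 was lost in 9 of 15 alternatives, HERC5 in 6, IFI44 in 4 and IRF1 in 2. The adjusted p-values of these 14 ran from 5.69e-05 (IRF9) to 0.0396 (IFI27).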

How the results depend on the processing

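No paired analysis was possible because the count columns carry no replicate number of the labels. HCC1187 (2 members up, 4 down, 3418 genes called): DESeq2 called 1 down, library totals 2 down, and all 12 libraries fitted together 1 up, 1 down and 1499 genes. Leaving out 1 library gave 1 (without S9) to 6 up (without S12), 1 (without S8) to 7 down (without S7) and 2213 (without S8) to 3410 genes. STAT2 there went from -0.06 to 0.00 with library totals. MDA-MB-468 (0 up, 0 down, 1 gene): DESeq2 called 1 up and 289 genes, no filter 12 up and 1441 genes, all 12 libraries 2 up and 887 genes. Leaving out 1 library gave 0 to 21 up, 0 to 5 down and 0 to 5676 genes, the highest without S4. MDA-MB-468 without S4 (21 up, 5 down, 5676 genes): DESeq2 and the fit of 11 libraries each called 3 down. Leaving out a further library gave 12 (without S5) to 23 up (without S3), 3 to 5 down and 3422 (without S6) to 6533 genes. Difference between lines (0 up, 1 down, 613 genes): DESeq2 called 2 down and 1142 genes, RLE 2 down, library totals 0 down, no filter 9 down and 1415 genes. Leaving out 1 library gave 0 to 2 up, 0 to 12 down and 129 (without S2) to 4300 genes, the highest without S4. Without S4 (2 up, 12 down, 4300 genes), no filter called 0 up, and leaving out 1 more library gave 0 (without S6) to 3 up, 8 to 14 down and 2855 (without S6) to 4234 genes. The cause was not tested. With library totals the share of higher calls among all genes went from 42.8% to 57.7% in HCC1187, from 33% to 46.9% for the difference and from 48.6% to 59.2% without S4. Between the controls all 34 calls kept their side under every alternative. Depth limits the members under 1 CPM, whose changes rest on few counts.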
